A study of Saccharomyces cerevisiae with 36 samples.

Results

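WT haploid yeast that had lost their amino acid supply for 15 min were compared with WT yeast in rich medium. The comparison rests on 6 of the 36 arrays of the series, 3 at 15 min and 3 at 0 min, chosen by strain and time alone. WT is W303a of mating type MATa, with mutant alleles of URA3, LEU2, HIS3, TRP1, ADE2 and CAN1 and with BAR1 deleted, and the mutants below share all of these. The other 30 arrays hold WT at 35 and 55 min and 2 strains of the same background with a mutation in a cohesin factor, eco1-W216G (the acetyltransferase of cohesin) and scc2-D730V (a subunit of its loader), at all 4 times. The 0 min cells grew exponentially in YPD with a complete supplement (CSM). For the 15 min samples such cells were spun down and put into minimal medium with no amino acids, and they were collected on filters. No culture went through the spin into medium that kept its amino acids, so loss of amino acids cannot be told apart from loss of the other parts of rich medium or from the handling. The strain also carries mutations in histidine, leucine, tryptophan, uracil and adenine synthesis and cannot make these compounds for itself.

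Uncharged tRNA activates the kinase Gcn2, whose phosphorylation of eIF2 lowers general translation and raises translation of the GCN4 mRNA, and Gcn4 then activates genes of amino acid synthesis. The kinases TORC1 and PKA respond to nitrogen and carbon supply. When active they promote transcription of ribosome genes and keep the stress activators Msn2 and Msn4 out of the nucleus. Ribosome production takes a large share of the transcription of a growing yeast cell, and its genes are known to fall together in many stresses.

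The values are log2 of the array intensity. Pairs of 0 min arrays correlated across the 5763 probe sets with r between 0.984 and 0.986, pairs of 15 min arrays with r between 0.989 and 0.992, and arrays of different times with r between 0.638 and 0.693. The median log2 intensity was between 11.02 and 11.06 on each of the 6 arrays. The arrays were normalized to a shared distribution, so a change in the total mRNA per cell was not measured, and in a culture a fall per cell and a smaller number of expressing cells cannot be told apart. The 6 a-specific genes measured, which MATa cells express, read between 9.57 and 14.50, and the deleted BAR1 read between 4.71 and 4.86. The alpha-specific genes MF(ALPHA)1, MF(ALPHA)2 and STE3 read at most 8.06, while SAG1, the fourth of these genes, read between 10.66 and 11.28. The median of the 17 rRNA probe sets lay between 9.74 and 10.80 at 0 min and between 7.38 and 9.23 at 15 min, and the part of RNA quality in the results below was not tested.

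Nearly as many probe sets were called higher as lower, a balance that normalization to a shared distribution favours. At 15 min 1872 probe sets were higher and 1814 lower, and 2077 were called neither way. A probe set was called at an adjusted p under 0.05 from limma and a change of at least 1.4-fold. The calls were 32.5% of all probe sets in the higher direction and 31.5% in the lower. At least 4-fold, 493 probe sets (8.55%) were higher and 491 (8.52%) lower. All 3 arrays of a time lay beyond all 3 of the other for 77.25% of the probe sets. The median change of all probe sets was 0.02 on the log2 scale, and the shared distribution also favours a small median change. Genes at least 4-fold higher had a median level of 9.16 at 0 min and those at least 4-fold lower a median of 12.19, against 11.03 for all probe sets. Of the 493, 148 had a 0 min mean at or under 8.06, the highest reading of the silent or deleted genes BAR1, MF(ALPHA)1, MF(ALPHA)2 and STE3, and 184 of the 491 had a 15 min mean at or under it, so the arrays set no firm size for these changes. Across the 16 chromosomes the share called higher ran from 27.0% on XIV to 41.4% on IX, and the share called lower from 22.7% on VI to 36.7% on VIII.

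**Figure D1:**
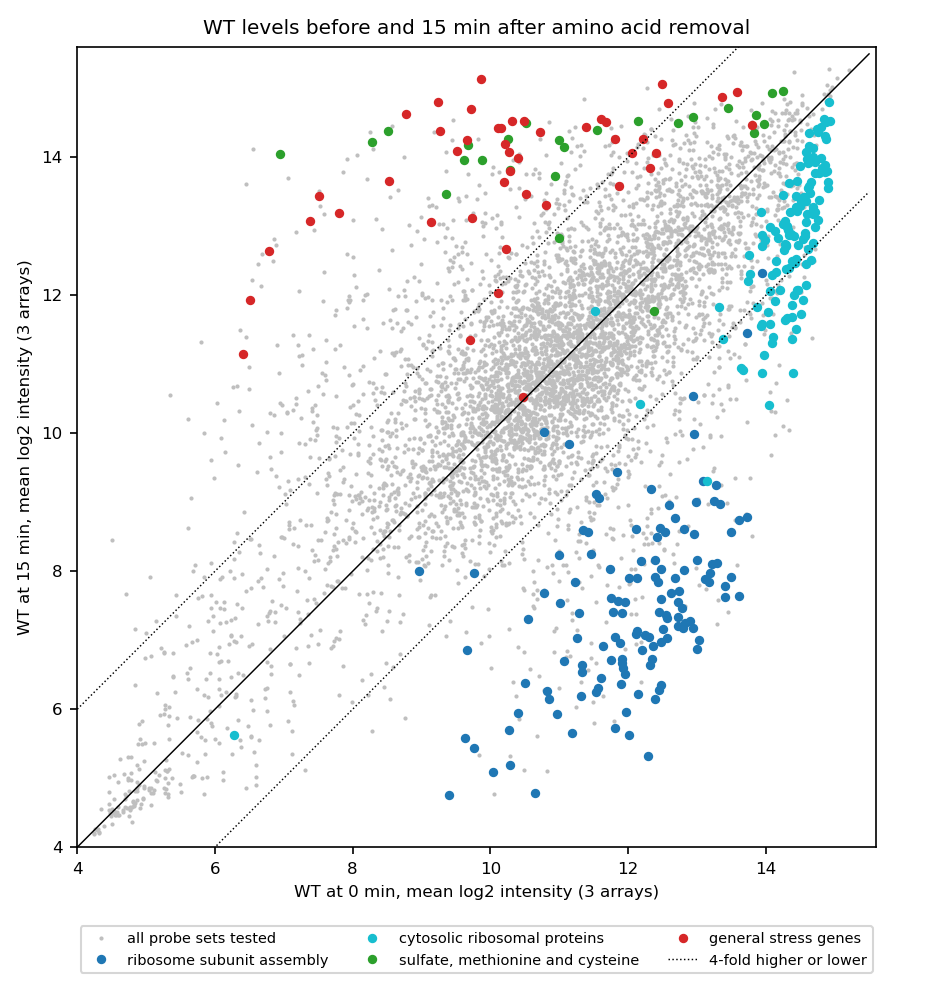
Mean log2 intensity of each probe set in WT at 15 min (vertical axis, 3 arrays) against 0 min (horizontal axis, 3 arrays), with no change on the solid line and 4-fold change on the dotted lines. Ribosome subunit assembly genes (blue) lie below the solid line, most of them beyond 4-fold, and general stress genes (red) and sulfur genes (green) lie mostly above it.

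The largest falls were in genes that build ribosomes. Of the 15 genes with the largest decrease, 12 belong to the lists of ribosome assembly and RNA polymerase genes. UTP13 (YLR222C), a subunit of the small subunit processome that processes the precursor of 18S rRNA, read 12.38, 12.23 and 12.23 at 0 min and 4.83, 5.37 and 5.75 at 15 min. On the log2 scale the gene fell by 6.96 (with a standard error of 0.59 and adjusted p = 2.42e-11 from limma), or 125-fold. The 15 min readings are near that of the deleted BAR1. ENP2 (YGR145W), another processome protein, read 12.17, 12.10 and 11.77 at 0 min and 5.74, 5.64 and 5.49 at 15 min and fell by 6.39 (adjusted p = 1.43e-12). NOC2 (YOR206W), which moves 60S precursors out of the nucleolus, read 12.28, 12.48 and 12.43 at 0 min and 5.93, 6.12 and 6.39 at 15 min and fell by 6.25 (adjusted p = 5.39e-12). In each of the 3 genes all 15 min arrays lay far below all 0 min arrays, and separate times were a condition for a place among the 15. AAH1, the adenine deaminase, was a gene of another kind among the 15, and it fell by 6.06 (adjusted p = 1.01e-09). TRM11, which methylates tRNA, fell by 5.97. The other 10 of the 15 were KRE33, UTP8, RPF2, RRS1, NIP7, NOG1, BFR2, CIC1, RRP1 and SSF1, with changes between -5.86 and -6.17.

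The fall ran through the assembly lists. All 59 measured genes of the small subunit processome and 40S assembly were lower, 57 of them at least 4-fold, with a median change of -4.64. All 69 genes of 60S assembly were lower, 66 of them at least 4-fold, with a median of -4.94. Of the 14 snoRNP proteins, which guide rRNA modification, 13 were lower, with a median of -3.56, and RVB2, a helicase with roles beyond snoRNPs, had a change of -0.40 that did not reach 1.4-fold. NOP1, the rRNA methyltransferase fibrillarin, read 14.31, 14.43 and 14.25 at 0 min and 9.64, 10.10 and 10.42 at 15 min, a change of -4.28. GAR1, of the pseudouridylating snoRNPs, fell by 4.15. Of the 30 tRNA modification enzymes 29 were lower, with a median of -3.02. ELP3, the catalytic subunit of Elongator, fell by 4.66 (adjusted p = 8.47e-14), and NCL1, a tRNA cytosine methyltransferase, fell by 3.06. Against the 8.52% of all probe sets that were at least 4-fold lower, the 6 lists of assembly, snoRNP, RNA polymerase and tRNA modification genes made up 36.7% of the 491 and 3.63% of all probe sets.

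RNA polymerase I, which transcribes the rRNA precursor, had 14 of its 15 measured subunits and factors lower, with a median of -2.33. RPA190, its largest subunit, read 13.75, 13.86 and 13.51 at 0 min and 9.04, 8.65 and 8.81 at 15 min. It fell by 4.87 (standard error 0.44, adjusted p = 7.48e-11), with no overlap between the times. RPA12, a small subunit, fell by 5.24, and RRN7, an initiation factor, fell by 1.56. RRN10, an upstream activating factor, was called higher by 0.49, a call that was lost without 0 min replicate 1, 0 min replicate 3 or 15 min replicate 1. RNA polymerase III, which makes tRNA and 5S rRNA, had 13 of 22 lower and 3 higher, with a median of -2.68. RPC31 fell by 5.21 and RPC34 fell by 3.70. The 3 that rose were MAF1 (0.65), the repressor of this polymerase, and TFC3 (0.61) and TFC7 (0.78), subunits of its initiation factor TFIIIC. These 4 risers were singled out after their values were seen.

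Genes for the ribosome itself fell less far. Of 127 measured cytosolic ribosomal protein genes 117 were lower, 31 of them at least 4-fold, and none was higher, with a median of -1.42. RPS26B, of the small subunit, read 14.07, 14.03 and 14.02 at 0 min and 10.59, 10.19 and 10.44 at 15 min. It fell by 3.63 (adjusted p = 2.14e-13). RPL38, of the large subunit, read 14.30, 14.22 and 14.38 at 0 min and 11.91, 11.47 and 11.62 at 15 min and fell by 2.63 (adjusted p = 6.78e-13). The 15 min arrays of both lay below those of 0 min with a gap of over 1 log2 unit. Most ribosomal protein genes began near the top reading of the arrays, 15.29, where differences can be compressed. Probe sets of near-identical pairs may also read both copies, and so the values of one copy are uncertain. Mitochondrial ribosomal proteins had 30 of 69 members lower and 2 higher (MRP49 at 0.94 and RSM10 at 1.00), with a median of -0.37. Of all probe sets 31.5% were lower and 32.5% higher, and none of these 69 genes was at least 4-fold lower. MRPL20 fell by 1.45 (adjusted p = 1.06e-06).

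Translation factors had 24 of 29 members lower and none higher, with a median of -1.67. TIF4631, which encodes the scaffold eIF4G, read 12.63, 12.58 and 12.38 at 0 min and 9.29, 8.92 and 9.10 at 15 min and fell by 3.43 (adjusted p = 6.65e-15). NIP1, a subunit of eIF3, fell by 2.74, and TIF5, of eIF5, fell by 2.81. The 5 not called were CAM1, EFT2, HYP2, TEF2 and TIF4632, among them the elongation factors EFT2 (-0.37) and TEF2 (-0.04). Of 19 cytosolic aminoacyl-tRNA synthetases 18 were lower, with a median of -1.05, and DPS1, for aspartate, had a change of -0.30. FRS2, a subunit for phenylalanine, fell by 1.93 (adjusted p = 8.34e-12).

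A list of Gcn2 and its partners, of eIF2 and of its exchange factor eIF2B was lower at the level of mRNA. Of the 13 genes 12 were lower and none was higher, with a median of -1.49. Much of the list is initiation factors and not the sensor. GCN2 itself fell by 0.63 and its partner GCN20 by 0.57, both less than the median. GCD6, the catalytic subunit of eIF2B, read 12.16, 12.25 and 12.16 at 0 min and 9.57, 9.49 and 9.67 at 15 min. It fell by 2.61 (standard error 0.20, adjusted p = 2.54e-12). GCN1, the partner that brings Gcn2 to ribosomes, fell by 1.49, and GCD11, a subunit of eIF2, fell by 2.25. GCN5, a histone acetyltransferase, changed by -0.48 and did not reach 1.4-fold. GCN4 itself (YEL009C) read 14.57, 14.58 and 14.64 at 0 min and 14.50, 14.43 and 14.54 at 15 min. Its change was -0.11 (standard error 0.07, adjusted p = 0.173), which did not pass the test, although the 15 min arrays all lay slightly below the 0 min arrays. GCN4 is known to be controlled in translation, which these arrays do not measure, and its level was within 1 log2 unit of the top reading.

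**Figure D2:**
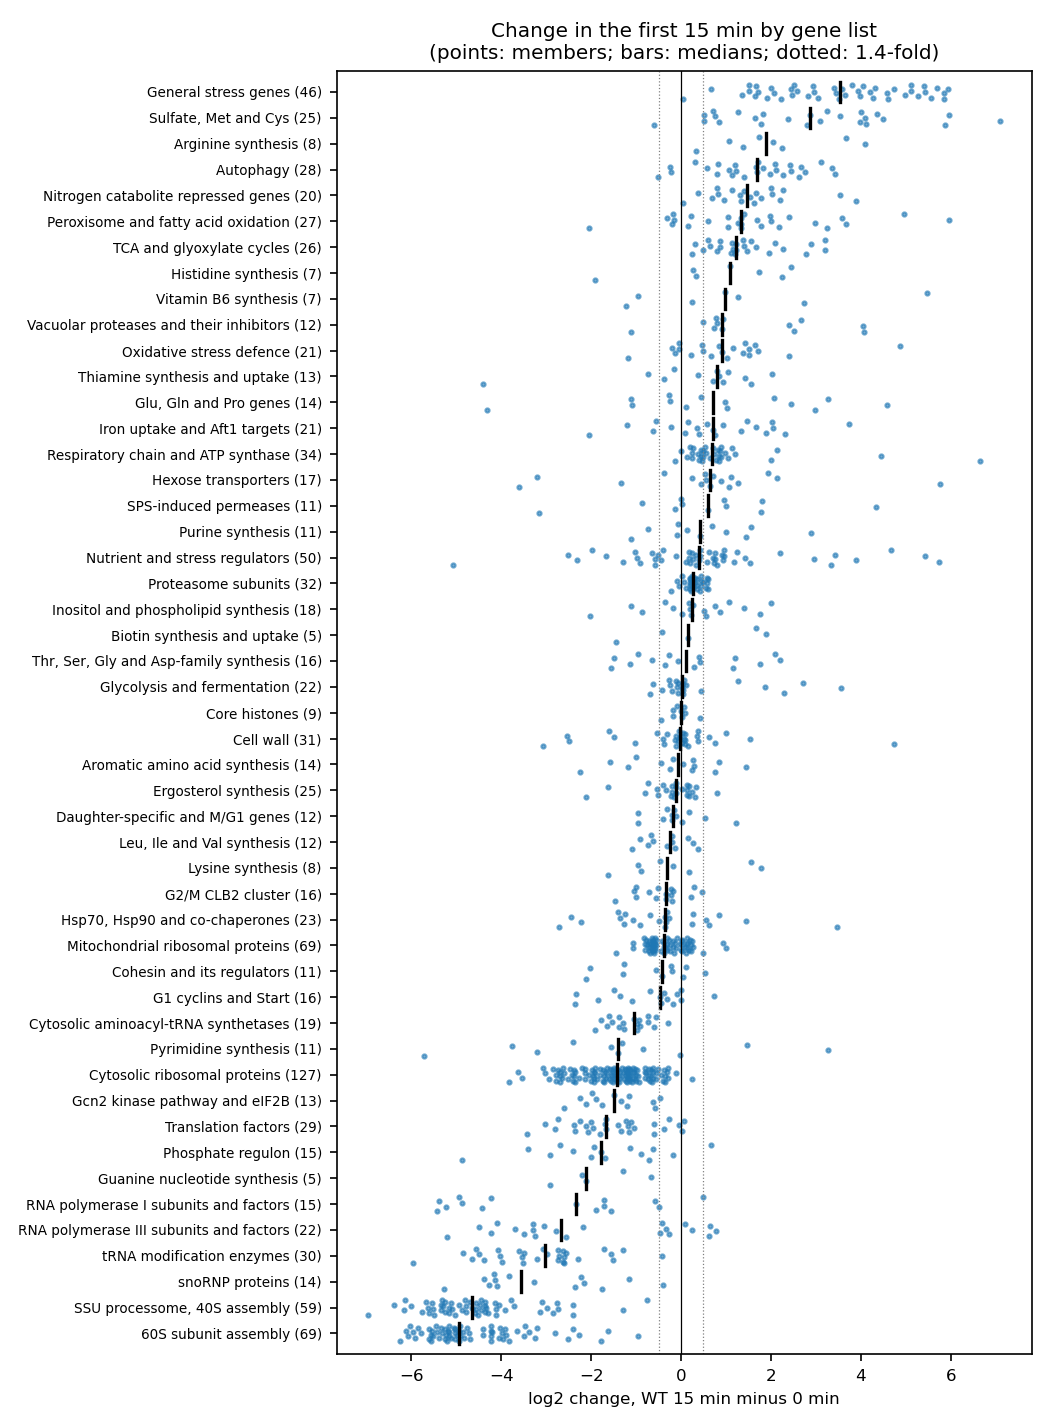
Log2 change from 0 to 15 min in WT for each measured member (points) of 49 gene lists, ordered by their medians (bars), with the number of members after each name and dotted lines at 1.4-fold. Medians run from -4.94 for 60S subunit assembly to 3.54 for general stress genes, against 0.02 for all probe sets.

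The largest rises began from low levels. The 15 genes with the largest increase had 0 min means between 6.45 and 8.57 and 15 min means between 12.61 and 14.46. The top reading of the arrays was 15.29, so a rise of this size needs a low start. The low levels are therefore no separate result. YNL194C, a membrane protein of eisosomes, read 6.46, 6.94 and 6.26 at 0 min and 14.18, 14.16 and 14.04 at 15 min. Its log2 rise was 7.57 (standard error 0.35, adjusted p = 1.87e-16), or 190-fold. FMP45, a related eisosome protein, rose by 6.11. SPG4, needed for survival in stationary phase, read 6.69, 6.41 and 6.26 at 0 min and 13.88, 13.46 and 13.51 at 15 min and rose by 7.17 (adjusted p = 1.98e-18). NDE2, an external NADH dehydrogenase of mitochondria, rose by 6.64, and CRC1, the mitochondrial carnitine carrier, by 5.96. The sulfur genes SUL1, SUL2 and STR3 were also among the 15. TMA10 read 7.47, 6.61 and 9.5 at 0 min and 13.95, 13.99 and 13.44 at 15 min, a rise of 5.94 that was 5.31 without 0 min replicate 2 and 6.75 without 0 min replicate 3. The rest were PHM7, NQM1, RTN2, SOL4, BAG7 and SEO1, with rises between 5.90 and 6.06.

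Sulfur uptake and methionine synthesis rose as a group. Of 25 measured genes 24 were higher, 15 of them at least 4-fold, with a median of 2.86, against 32.5% of all probe sets higher. SUL1 (YBR294W), a high-affinity sulfate permease, read 6.67, 7.26 and 6.92 at 0 min and 13.98, 13.96 and 14.24 at 15 min. It rose by 7.10 (standard error 0.21, adjusted p = 8.01e-21), or 138-fold. SUL2, the other sulfate permease, read 8.16, 7.97 and 8.68 at 0 min and 14.16, 14.20 and 14.32 at 15 min and rose by 5.95 (adjusted p = 1.66e-21). Neither gene had any overlap between the times, which was a condition for a place among the 15 largest rises. STR3, which converts cystathionine to homocysteine, rose by 5.87. MET1, of siroheme synthesis for sulfite reductase, rose by 4.00, and MUP3, a low-affinity methionine permease, by 4.50. MET7, which adds glutamates to folate, was the one that fell by 0.60. The regulators of the pathway differed among themselves. MET28, a cofactor that helps Met4 bind DNA, read 6.44, 7.68 and 7.43 at 0 min and 13.11, 12.79 and 12.84 at 15 min and rose by 5.73 (adjusted p = 6.70e-18). MET32, a DNA-binding partner of Met4, rose by 4.68, while its paralog MET31 changed by -0.44 (adjusted p = 0.143) and MET4, the activator, by 0.32 (adjusted p = 0.0874), neither past the threshold.

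Arginine synthesis had 7 of 8 measured genes higher, with a median of 1.90. ARG3, ornithine carbamoyltransferase, read 8.76, 8.34 and 8.59 at 0 min and 13.11, 12.09 and 12.78 at 15 min and rose by 4.10 (adjusted p = 2.34e-11). ARG1, argininosuccinate synthetase, read 11.39, 10.67 and 10.49 at 0 min and 14.54, 14.41 and 14.60 at 15 min and rose by 3.67 (adjusted p = 3.94e-11). The times did not overlap in either gene. ORT1, the mitochondrial ornithine carrier, rose by 2.24, and ARG8, of ornithine synthesis, changed by 0.33 (adjusted p = 0.18), not past the threshold. Histidine synthesis had 4 of 7 higher, with a median of 1.09. HIS4 (YCL030C), which encodes an enzyme of several steps and is a classical target of Gcn4, read 12, 11.29 and 11.90 at 0 min and 14.08, 14.24 and 14.22 at 15 min and rose by 2.45 (adjusted p = 6.06e-12). HIS5, the aminotransferase of the pathway, rose by 2.24. HIS6, an isomerase of the same pathway, read 11.47, 11.55 and 11.12 at 0 min and 9.39, 9.52 and 9.48 at 15 min and fell by 1.91 (adjusted p = 4.40e-10).

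Other amino acid families were mixed at 15 min. Of all probe sets 32.5% were higher and 31.5% lower, and shares near these are no result about a family. Lysine synthesis had 2 of 8 genes higher and 3 lower, with a median of -0.32. LYS1, of the last step, rose by 1.78, and LYS5, which activates the reductase Lys2, rose by 1.54, while LYS4, homoaconitase, fell by 1.63. Of 12 genes for leucine, isoleucine and valine none was higher and 5 were lower, with a median of -0.25. ILV3, a dehydratase shared by isoleucine and valine synthesis, read 14.17, 14.18 and 14.16 at 0 min and 13.18, 13.24 and 13.33 at 15 min and fell by 0.92 (adjusted p = 1.37e-06). LEU4, which starts leucine synthesis, changed by 0.37 (adjusted p = 1.38e-04), under 1.4-fold. Aromatic synthesis had 3 of 14 higher and 4 lower, with TRP3 up by 1.45 and ARO2, chorismate synthase, at a change of -1.17. ARO10, of phenylpyruvate breakdown, read 11.95, 10.31 and 12.23 at 0 min and 8.94, 8.96 and 9.84 at 15 min, a change of -2.25 that was -2.84 without 0 min replicate 2. Among 16 genes for threonine, serine, glycine and aspartate-family synthesis 5 were higher and 5 lower. SER33 and SER3, isoenzymes of the first step to serine, rose by 2.09 and 2.19, and HOM3, aspartate kinase, by 1.20, while SER2, which makes serine from its phosphate and was singled out after its value was seen, fell by 1.15. Glutamate, glutamine and proline genes had 7 of 14 higher and 3 lower. GAD1, glutamate decarboxylase, rose by 4.57, UGA2, of GABA breakdown, by 2.97, and PUT1, proline oxidase, by 3.28, while PRO1, of the first step to proline, read 12.71, 12.62 and 12.81 at 0 min and 8.16, 8.4 and 8.61 at 15 min and fell by 4.32 (adjusted p = 4.75e-12).

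Genes for poor nitrogen sources rose. Of 20 genes under nitrogen catabolite repression, which are off while good nitrogen sources last, 18 were higher and none was lower, with a median of 1.46. DAL80, a repressor within this regulon, read 7.89, 7.67 and 8.20 at 0 min and 11.86, 11.42 and 12.17 at 15 min and rose by 3.89 (adjusted p = 1.25e-12). DAL5, the allantoate permease, rose by 2.00, and MEP2, an ammonium permease, by 1.39. MEP3, another ammonium permease, changed by 0.05 and ASP3-1, an asparaginase, by 0.38, neither reaching 1.4-fold. A list of 11 permeases for amino acids or peptides was taken as tied to the SPS sensor of external amino acids. Of these 6 were higher and 2 lower, against 32.5% and 31.5% of all probe sets. BAP2 (-0.15), GNP1 (0.03) and PTR2 (-0.01) were not called, and TAT2 fell by 0.88. MUP1, among the 6, is also in the sulfur list. AGP3 read 7.47, 7.65 and 7.61 at 0 min and 11.69, 11.91 and 12.14 at 15 min and rose by 4.34 (adjusted p = 1.36e-14). TAT1, a permease for valine, leucine, isoleucine and tyrosine, read 12.74, 12.79 and 12.70 at 0 min and 9.37, 9.71 and 9.67 at 15 min and fell by 3.16 (adjusted p = 4.60e-13). Of 7 genes of vitamin B6 synthesis 4 rose and 2 fell, against 32.5% and 31.5% of all probe sets. SNO1 read 6.89, 6.83 and 6.29 at 0 min and 12.15, 12.14 and 12.12 at 15 min and rose by 5.47 (adjusted p = 2.06e-15), and SNZ1, which shares its promoter region, rose by 2.73.

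Nucleotide synthesis was lower for guanine and pyrimidines and mixed for purines. All 5 guanine nucleotide genes were lower, with a median of -2.11. IMD4, an IMP dehydrogenase, read 14.36, 14.49 and 14.25 at 0 min and 11.37, 11.47 and 11.53 at 15 min and fell by 2.91 (adjusted p = 7.33e-12), and GUA1, GMP synthase, fell by 2.21. IMD2 fell by 0.67 (adjusted p = 0.0419), a call that was lost without 0 min replicate 1 (adjusted p = 0.176), 0 min replicate 2 (0.0514), 15 min replicate 1 (0.0641) or 15 min replicate 3 (0.185). Pyrimidine genes had 8 of 11 lower and 2 higher, with a median of -1.39. Paralogs of 2 steps moved in opposite directions. URA7, the main CTP synthase, read 13.49, 13.21 and 13.22 at 0 min and 7.52, 7.72 and 7.5 at 15 min and fell by 5.73 (adjusted p = 1.09e-10), while its paralog URA8 rose by 1.48. URA5, the main orotate phosphoribosyltransferase, fell by 0.85, and its paralog URA10 read 9.59, 9.19 and 9.26 at 0 min and 12.73, 12.62 and 12.53 at 15 min and rose by 3.28 (adjusted p = 6.11e-14). Among 11 purine genes 5 were higher and 2 lower, against 32.5% and 31.5% of all probe sets. ADE17 was up by 2.88 and ADE6 had a change of -1.11. The phosphate regulon had 13 of 15 genes lower and 1 higher, the vacuolar phosphatase PHO8 (0.66), with a median of -1.78. PHM6 read 11.99, 11.21 and 11.40 at 0 min and 6.31, 6.55 and 7.13 at 15 min and fell by 4.87 (adjusted p = 2.98e-14), PHO5, the secreted acid phosphatase, fell by 2.40, and VTC3, of polyphosphate synthesis, fell by 2.00.

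General stress genes had the highest median of the 49 lists, 3.54, with 45 of 46 members higher and 37 of them at least 4-fold. HSP12, a membrane-stabilizing stress protein, read 10.04, 9.86 and 9.69 at 0 min and 15.17, 15.12 and 15.12 at 15 min. It rose by 5.28 (standard error 0.34, adjusted p = 8.47e-14), and its 15 min readings were near the top of the range, so the rise may be compressed. CTT1, the cytosolic catalase, read 8.78, 8.53 and 9 at 0 min and 14.66, 14.70 and 14.52 at 15 min and rose by 5.85 (adjusted p = 2.01e-17). DDR2 read 9.98, 8.71 and 9.03 at 0 min and 14.78, 14.86 and 14.79 at 15 min and rose by 5.57 (adjusted p = 1.16e-15). The plasma membrane protein HSP30 was the member not called, with a change of 0.04. The chaperones of the Hsp70 and Hsp90 classes had 4 of 23 higher and 11 lower and a median of -0.37. The number higher was 2 without 0 min replicate 2 or without 15 min replicate 1. SSE2, an Hsp70 exchange factor, rose by 3.46, while the ribosome-bound chaperones SSB2 and SSZ1 fell by 2.46 and 2.23 and the Hsp40 protein YDJ1 fell by 2.72. Oxidative stress defence had 13 of 21 higher and 1 lower, OYE2 (-1.18), an NADPH oxidoreductase. TSA2, a thioredoxin peroxidase, rose by 4.88 (adjusted p = 4.39e-13).

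Genes of autophagy and of the vacuolar proteases were mostly higher. Autophagy had 24 of 28 genes higher, with a median of 1.70. ATG1, the kinase that starts autophagy, read 8.80, 8.78 and 9.17 at 0 min and 11.82, 11.40 and 11.82 at 15 min and rose by 2.77 (adjusted p = 1.92e-14). ATG9, its membrane protein, rose by 2.44, and ATG34, a receptor of the selective pathway, by 3.11. ATG27 fell by 0.51, a call that was lost without 0 min replicate 1. Vacuolar proteases and their inhibitors had 11 of 12 higher, with PRB1, protease B, up by 2.51 and its inhibitor PBI2 up by 2.41, while the cell surface protease YPS3 fell by 1.11. Of 32 proteasome subunits 5 were higher and none lower, with a median of 0.27, against 32.5% of all probe sets higher. PRE3 had the smallest p, with a rise of 0.60. The number of proteasome genes called was 8 without 15 min replicate 3.

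Genes of mitochondrial and peroxisomal carbon metabolism rose. TCA and glyoxylate genes had 24 of 26 higher and none lower, with a median of 1.22. CIT1, mitochondrial citrate synthase, read 12.18, 12.40 and 12.39 at 0 min and 14.41, 14.43 and 14.40 at 15 min and rose by 2.09 (adjusted p = 4.34e-15). MDH2, malate dehydrogenase of the cytosol, rose by 2.89. The respiratory chain and ATP synthase had 21 of 34 higher and none lower, with a median of 0.68. COX6, of cytochrome c oxidase, rose by 0.84. CYC7, the minor cytochrome c, read 11, 7.78 and 10.68 at 0 min and 14.33, 14.38 and 14.10 at 15 min, a rise of 4.45 that was 3.43 without 0 min replicate 2 and 5.04 without 0 min replicate 1. Peroxisome and fatty acid oxidation genes had 20 of 27 higher and 1 lower, FAA4 (-2.05), an acyl-CoA synthetase, with a median of 1.34. POT1, the thiolase of beta-oxidation, read 6.47, 6.79 and 6.08 at 0 min and 11.58, 11.09 and 11.53 at 15 min and rose by 4.95 (adjusted p = 7.70e-15).

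Glycolysis as a list stayed near no change, with a median of 0.03 and 5 of 22 genes higher and 2 lower. Of all probe sets 32.5% were higher and 31.5% lower, and the counts of this paragraph are read against these shares. Of 17 hexose transporters and glucose sensors 10 were called higher and 3 lower, but 6 of the 10 had means at or under 8.06, the background reading given above, at both times. RGT2 and SNF3, the glucose sensors, were also among the 10, which leaves HXT5 and HXT7. HXT1, a low-affinity transporter, read 12.48, 12.83 and 12.76 at 0 min and 8.86, 8.89 and 9.5 at 15 min and fell by 3.61 (adjusted p = 3.61e-10). HXT3, another low-affinity transporter, fell by 3.20. HXT5, which is known for slow growth, read 7.30, 7.84 and 7.44 at 0 min and 13.07, 13.49 and 13.31 at 15 min and rose by 5.76 (adjusted p = 5.01e-15). HXT7, of high affinity, rose by 1.93, with HXT6 too similar in sequence to be told apart from it.

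Some isoenzymes had changes of unlike size, and the pairs given here were picked after their values were seen. The transaldolase TAL1 changed by 0.25, under 1.4-fold, and its paralog NQM1 rose by 6.01. The phosphoglycerate mutase GPM1 changed by 0.06 and its homolog GPM2 rose by 5.83. The transketolase TKL1 fell by 0.50 and TKL2 rose by 5.26. The enolases ENO2 and ENO1 changed by -0.06 and 0.44, neither at 1.4-fold. GPM1 read near the top of the range, where a rise can be compressed, and the part of this was not tested.

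Among 50 transcription regulators of nutrient and stress response 23 were higher and 12 lower, with a median of 0.41. Of all probe sets 32.5% were higher and 31.5% lower. Regulators of ribosome genes moved in both directions. TOD6, a repressor of ribosome assembly genes, read 11.92, 11.94 and 12.02 at 0 min and 6.63, 6.96 and 7.05 at 15 min and fell by 5.08 (adjusted p = 5.33e-10). Its paralog DOT6 read 10.95, 11.81 and 11.63 at 0 min and 12.50, 12.76 and 12.89 at 15 min and rose by 1.25 (adjusted p = 3.29e-04), and STB3, another repressor of these genes, rose by 0.81. IFH1, the coactivator of ribosomal protein genes, read 11.05, 10.96 and 11.37 at 0 min and 8.54, 8.53 and 8.74 at 15 min and fell by 2.52 (adjusted p = 1.08e-09), with smaller falls for its DNA-bound partners RAP1 (-1.67) and FHL1 (-0.98). SFP1, an activator of both sets, changed by -0.41, under 1.4-fold.

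Among regulators of stress and carbon genes some rose and others were not called. XBP1, a repressor induced by stress, read 6.10, 6.75 and 6.68 at 0 min and 11.73, 12.13 and 11.96 at 15 min and rose by 5.43 (adjusted p = 6.45e-12). CAT8 and ADR1, activators of genes for non-fermentable carbon, rose by 3.43 and 3.33. MSN4 rose by 0.91, and MSN2 changed by 0.41, under 1.4-fold. GIS1, an activator of genes used on entry to stationary phase, rose by 1.54, and RIM15, the kinase upstream of it, by 1.18. HAP4, the limiting activator of respiration genes, read 11.53, 10.62 and 12.10 at 0 min and 11.73, 11.87 and 11.86 at 15 min, and its change of 0.40 did not pass the test (adjusted p = 0.417), with overlapping times. HSF1, the heat shock factor, changed by 0.25 (adjusted p = 0.127). Regulators of single pathways included BAS1, of purine and histidine genes, at a change of -1.99, PPR1, of pyrimidine genes, at a change of -2.31, LEU3, of branched-chain synthesis, at a change of -1.02, and GAT1 and GLN3, activators of nitrogen genes, up by 0.94 and 0.57.

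**Figure D3:**
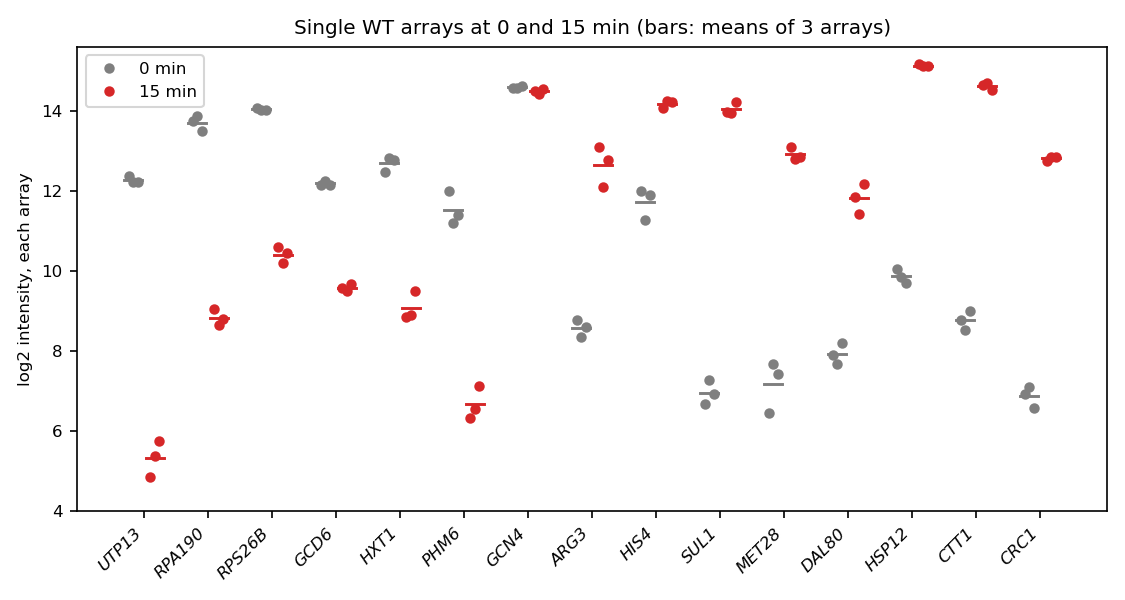
Log2 intensity on each of the 3 WT arrays at 0 min (grey) and at 15 min (red) for 15 genes, with bars at the means. The times are separate in all 15 genes, but for GCN4 by a change of only -0.11, and from UTP13 to PHM6 the 15 min arrays are the lower ones while from ARG3 to CRC1 they are the higher ones.

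The counts of cell cycle genes are read against the 31.5% of all probe sets that were lower, and shares near it are no result about these genes. Of 16 genes of G1 cyclins and Start 7 were lower and 1 higher, the inhibitor SIC1 (0.73), whose call was lost without 15 min replicate 1. CLN2, a G1 cyclin, read 11.85, 12.31 and 12.28 at 0 min and 9.42, 9.76 and 10.16 at 15 min and fell by 2.36 (adjusted p = 1.87e-09), and FAR1, which arrests the cycle in G1, fell by 2.34. Of 16 genes of the CLB2 cluster, active in G2 and mitosis, 7 were lower, with CLB2 at a change of -1.47. None of the 9 genes in the list of core histones, the linker histone HHO1 and the variant HTZ1 was called at 1.4-fold, with a median of -0.01. In the cohesin list 5 of 11 genes were lower. SCC2, the loader subunit, read 11.78, 11.92 and 11.66 at 0 min and 9.54, 9.81 and 9.69 at 15 min and fell by 2.11 (adjusted p = 2.26e-15), and SMC3, of the cohesin ring, fell by 2.03. ECO1 changed by 0.12, and RAD61, which releases cohesin from DNA, was higher by 0.54. Both were singled out after their values were seen.

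The counts of the next lists are read against 32.5% of all probe sets higher and 31.5% lower. Shares near these are no result about the genes. Cell wall genes had 5 of 31 higher and 7 lower, with a median of -0.03. PIR3, a cell wall glycoprotein, read 9.47, 9.37 and 9.21 at 0 min and 14.12, 14.19 and 13.93 at 15 min and rose by 4.73 (adjusted p = 2.60e-21), and SCW10, a glucanase, fell by 2.48. Ergosterol genes had 1 of 25 higher and 6 lower, with ERG3, a desaturase, at a change of -2.12. Inositol and phospholipid genes had 8 of 18 higher and 3 lower, with INO1 up by 2.00. Daughter-specific and M/G1 genes had 2 of 12 higher and 2 lower. Iron genes had 10 of 21 higher and 4 lower, with FIT2 up by 2.31 and the number lower at 1 or 2 without 0 min replicate 1, 0 min replicate 3, 15 min replicate 1 or 15 min replicate 2. HMX1, heme oxygenase, rose by 3.74, a value of 3.12 without 0 min replicate 2. Thiamine genes had 8 of 13 higher and 2 lower, with PHO3, which frees thiamine from its phosphates, at a change of -4.40. Of the 5 biotin genes VHT1, the biotin permease, rose by 1.90, BIO3 rose by 1.67 and BIO2, biotin synthase, fell by 1.46.

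The WT levels at 35 and 55 min, which share the 0 min arrays as their reference and are set side by side with no test, took several courses. UTP13 went from 5.32 ± 0.46 at 15 min to 7.04 ± 1.04 and 8.18 ± 1.19, each a mean of 3 arrays with its SD, and did not regain its 0 min level of 12.28 ± 0.09. The median change of 60S assembly genes against 0 min was -4.94, -4.30 and -3.43 at 15, 35 and 55 min. That of cytosolic ribosomal proteins was -1.42, -2.21 and -2.27. RPS26B went from 10.41 ± 0.20 at 15 min to 9.61 ± 0.12 and 9.61 ± 0.12. The assembly genes thus lay lowest at 15 min and the ribosomal proteins at the later times. The median of general stress genes was 3.54, 2.79 and 2.34, and that of arginine synthesis 1.90, 2.04 and 2.30. CIN5, a stress regulator, read 12.35 ± 0.50 at 15 min, 10.10 ± 0.64 at 35 min and 9.32 ± 0.29 at 55 min, against 10.14 ± 0.04 at 0 min. HXT1 read 9.08 ± 0.36, 12.17 ± 0.48 and 12.70 ± 0.14 at the 3 times, with 55 min near its 0 min level of 12.69 ± 0.19. ARG3 read 12.66 ± 0.52, 13.73 ± 0.27 and 14.16 ± 0.16. Lysine synthesis, with a median of -0.32 at 15 min, stood at 0.31 and 0.82 later.

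**Figure D4:**
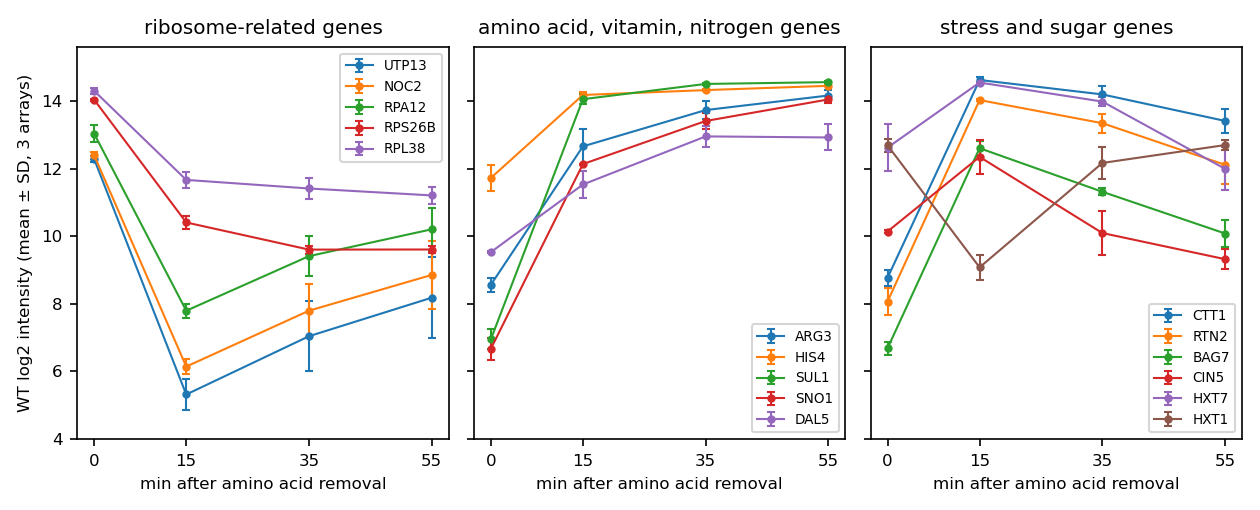
WT log2 intensity (mean with SD over 3 arrays) at 0, 15, 35 and 55 min for genes of ribosome production (left), of amino acid, vitamin and nitrogen supply (middle) and of stress and sugar uptake (right). UTP13, NOC2 and RPA12 are lowest at 15 min, RPS26B and RPL38 are lower still afterwards, and HXT1 falls at 15 min and returns.

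The first 15 min were then compared with those of the mutants, whose change was taken against their own 0 min arrays. In eco1-W216G the change differed from that of WT for 1972 probe sets (34.2%) in limma's test of the interaction. Of these, 1874 were called in WT, and for 1869 of the 1874 the difference was opposite in sign to the WT change. The same WT arrays enter both terms, and the 1874 were picked by their WT change. Opposite signs are therefore favoured in advance, and the count is a description. Across all probe sets the slope of the eco1-W216G change on the WT change was 0.448 with r = 0.896, a description over features that share arrays. Of the ribosome assembly genes 67 of 69 for 60S and 56 of 59 for the small subunit differed, and the medians were -1.81 against -4.94 in WT and -1.73 against -4.64. General stress genes had 43 of 46 members that differed, with a median of 1.20 against 3.54. The sulfur list had 5 of 25, with a median of 2.63 against 2.86. Of the 8 arginine genes 3 differed, and of the 69 mitochondrial ribosomal proteins 2.

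Several genes with the smallest interaction p began from other levels in eco1-W216G. PIR3 went from 13.93 to 14.72 there and from 9.35 to 14.08 in WT, a difference in change of -3.94 (standard error 0.19, adjusted p = 1.08e-14). SPG4 went from 11.29 to 13.97, against 6.45 to 13.62 in WT. In both genes the 15 min levels of the strains were within 1 log2 unit of each other and the 0 min levels more than 4 apart. TRZ1, the tRNA 3′ processing enzyme, went from 11.41 to 10.18, against 12.03 to 7.82 in WT, so that here the 15 min levels were the ones farther apart. HO, the endonuclease of mating type switching, fell by 4.41 in WT, and its change in eco1-W216G was -0.83.

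In scc2-D730V no probe set (0%) differed from WT in its first 15 min change, with 76 at an unadjusted p under 0.05 and no other tool run. This does not show that the changes were the same. The slope of the scc2-D730V change on the WT change was 0.92 with r = 0.991, and all 1814 probe sets called lower in WT and 1871 of the 1872 called higher had the same sign there. SCC2, the mutated gene, had the smallest p, with a change of -1.44 against -2.11 in WT and a difference of 0.66 (standard error 0.16). HSP12 changed by 3.97 there, against 5.28 in WT and 0.64 in eco1-W216G, and its levels at 15 min were 15.09, 15.14 and 15.13 in this order.

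**Figure D5:**
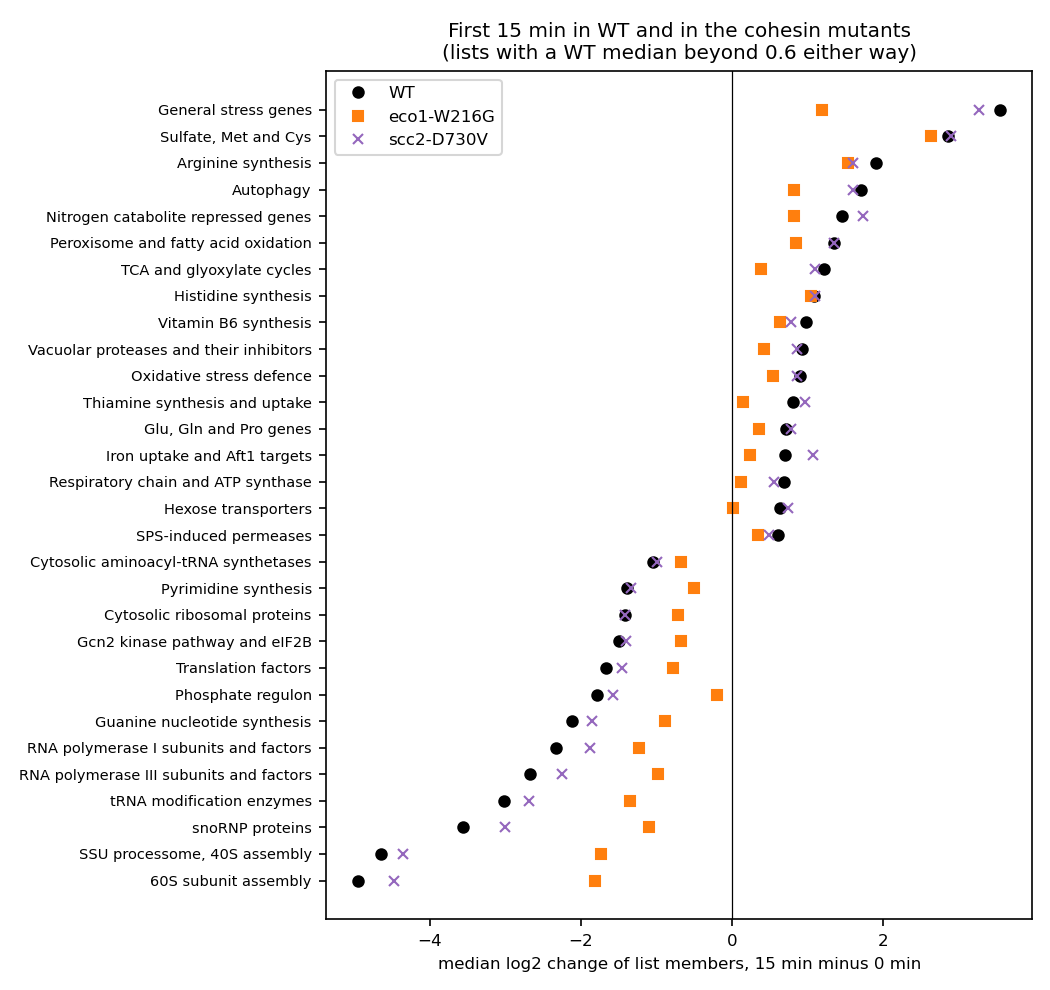
Median log2 change from 0 to 15 min over the members of each list whose WT median lies beyond 0.6 either way, in WT (circles), eco1-W216G (squares) and scc2-D730V (crosses), each against its own 0 min arrays. The squares lie nearer to 0 than the circles in each list drawn, with a small gap for the sulfur list (2.63 against 2.86) and a wide one for 60S assembly (-1.81 against -4.94), and in most lists the crosses lie nearer to the circles than the squares do.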

How the data were processed

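RNA of 36 samples (3 strains, 4 times, 3 arrays a group) was hybridized to Affymetrix Yeast Genome 2.0 arrays. The deposited values are RMA intensities on a linear scale from 17.3 to 43883, which the authors background-corrected, quantile-normalized and summarized per probe set. No detection calls, raw probe values or genome build were used here. Log2 was taken, 51 control probe sets were left out of 5814, and 5763 were tested, of which 5498 had a gene name. The study describes 3 cultures of each strain, sampled through the 4 times, so arrays of different times can share a culture. The number of cultures limits the precision, and the main fit took all arrays as independent. Counts from fits with replicate blocks are given at the end.

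A model with 12 group means was fitted to all 36 arrays (24 residual degrees of freedom) with limma 3.58.1 in R 4.3.3, with Benjamini-Hochberg adjustment over all probe sets. Changes were 15 min minus 0 min, and mutant minus WT differences were interaction contrasts. A call needed an adjusted p under 0.05 and 1.4-fold. Where a gene had several probe sets, the brightest stood for it. The 49 lists held 1197 entries, 1165 of them measured. The genes, lists and comparisons were chosen with earlier results of these data known. Named genes were the 15 largest changes each way, the 5 with the smallest p in each list and all regulators listed. The leading strain differences were named too, and others were singled out after their values were seen. The 15 each way came only from probe sets with an adjusted p under 0.05 and separate times. Separate means that all 3 arrays of a time lay beyond all 3 of the other. The fit was also run on simulated arrays with known changes in a small part of the probe sets and with independent noise. In the data far more probe sets were called and arrays can share a culture, so that run does not cover these points. Alternatives were other sets of arrays, centring, an offset, a filter on dim probe sets, trend and array weights, replicate blocks and leaving out each array.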

Additional observations from a re-analysis of the deposited data

Results flagged for a closer look

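The change over the first 15 min differed between eco1-W216G and WT for 1972 probe sets by the interaction contrast in limma. The named genes with the smallest p follow, each given as the eco1-W216G change minus the WT change on the log2 scale. It was -3.94 for PIR3, a cell wall glycoprotein, -3.18 for CRC1, the carnitine carrier, and -4.49 for SPG4, a stationary phase gene. It was -4.57 for DDR2, a stress gene, and -4.25 for BAG7. It was -2.42 for AFR1, which acts in the pheromone response, -2.46 for CRG1 and -1.22 for UGA1, the GABA transaminase. It was positive for HO (3.59) and TRZ1 (2.98), which fell in WT.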

How the results depend on the processing

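In 5074 comparisons of a named gene's WT change with an alternative, only direction and the main adjusted p threshold were read. The fold limit of a call was left out, so calls lost or gained through it are not counted. Of the 5074, 5032 kept direction and side of the adjusted p threshold, 29 no longer passed it, 13 newly passed it and 0 turned. Some of the 29 are of genes under the fold limit in the main fit, such as SFP1 and MSN2. Of 1764 list counts 52 moved by over 1.5 times. With the dimmest 25% of probe sets left out, 304 were at least 4-fold lower in place of 491, with fewer probe sets tested. At an adjusted p under 0.001, the eco1-W216G change differed from that of WT for 795 probe sets in place of 1972. Leaving out 1 array at a time gave 1825 to 1881 higher, 1732 to 1825 lower, 485 to 499 at least 4-fold higher, 484 to 503 at least 4-fold lower, 1750 to 1903 that differed in eco1-W216G and 0 to 1 in scc2-D730V, the 1 without WT 0 min replicate 3. Residuals of arrays with the same replicate number correlated at 0.14, 0.10 and 0.09, not all over 0.1, and the labels do not say that a number marks a culture, so the fit has no block. Each number correlated best with itself, and the study followed cultures through time, so pairing is likely. The consensus correlation within a strain and number was 0.243. With the number as a fixed replicate block the counts were 1899 higher, 1827 lower, 493 and 491 at least 4-fold, 2196 in eco1-W216G and 0 in scc2-D730V. With the culture as a random block they were 1902, 1831, 493, 491, 2260 and 0. Array weights did not converge fully, so values with them are less certain. Scaling on spiked hybridization controls was not run. Levels near the background or the top of the range limit the size of the largest changes.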
